A study of Homo sapiens with 6 samples.

Results

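The tetraspanins are a family of small membrane proteins, and 32 of their genes were followed in MCF10A-SNAI1 and MCF10A cells. A gene counted as a member when a probe set of the array carried its symbol alone, and when that symbol was TSPAN with a number or one of CD9, CD37, CD53, CD63, CD81, CD82, CD151, UPK1A, UPK1B, PRPH2 and ROM1. The probe set with the highest mean over all arrays stood for each gene. The 32 genes had 33 such probe sets, since TSPAN11 had 2, and the whole array gave 18417 genes by the same rule. Total RNA was measured on 6 Affymetrix HuGene arrays, 3 of MCF10A-SNAI1 cells and 3 of MCF10A cells, which the submitters call biological replicates. MCF10A is a human breast epithelial line that grows indefinitely in culture and does not form tumours. The MCF10A-SNAI1 line carries a plasmid for Flag-tagged SNAI1, a repressor of transcription that drives epithelial-mesenchymal transition (EMT), under a CMV enhancer and chicken beta-actin promoter, and came from another laboratory, where it was made by puromycin selection. The MCF10A cells were untransfected, so plasmid, selection and separate culture history cannot be told apart from SNAI1. The sources used here do not say whether the line is 1 clone.

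Tetraspanins cross the membrane several times and expose a large extracellular loop. Through it they bind integrins, immunoglobulin-like proteins, growth factor precursors and proteases, and hold them in patches of membrane called tetraspanin-enriched microdomains. In epithelia they sit at lateral contacts, at hemidesmosomes and on endosomes, and several of them are standard markers of extracellular vesicles.

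The labels were checked first. SNAI1 lay at 10.50, 10.53 and 10.50 on the log2 scale in MCF10A-SNAI1 cells, against 5.80, 5.73 and 5.77 in MCF10A cells. Of 6 measured epithelial markers 5 were called lower in MCF10A-SNAI1 cells and none higher, and of 8 mesenchymal markers 7 were called higher and none lower. KRT18 was the epithelial marker that was not called, with a log2 fold change of -0.65 (limma adjusted p = 0.00106), and VIM the mesenchymal one, at 0.06 (adjusted p = 0.601). Among markers of other cell types, the means of 7 blood cell genes spanned 3.22 to 6.89 in MCF10A-SNAI1 and 3.23 to 5.87 in MCF10A cells, and only CD14 was called, higher in MCF10A-SNAI1 cells. None of 4 endothelial genes was called, with means of 4.30 to 5.20 in MCF10A-SNAI1 and 4.49 to 5.17 in MCF10A cells. Array medians lay between 6.04 and 6.09, and the Pearson r across probe sets was 0.995 to 0.996 within a line, against 0.977 to 0.978 between the lines.

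Snail proteins are known to bind the E-box CACCTG, which reads CAGGTG on the other strand. With 5 tetraspanin genes called lower in MCF10A-SNAI1 cells, this motif was looked up in RefSeq promoter windows of GRCh38.p14. The windows run from 250 bases before to 50 bases after each annotated start. Of the 32 genes 24 had at least 1 window, and 9 of the 24 held the motif on either strand in at least 1 of them. Among all 27305 genes with a window it was 24.1%, and genes differ in their number of windows. Counted by window, 11 of 44 tetraspanin windows held it, against 20.6% of all 35116 windows. Among the genes called lower, CD9 and TSPAN13 held the motif, CD82 and TSPAN1 did not, and TSPAN18 had no window. The 250 bases before the start are printed for these 4 genes, in lower case on the strand of the gene with the E-box in capitals, and for CD63, the member with the highest log2 fold change. For CD9 and CD63, which have several starts, a window with the motif was chosen.
CD9, chr12:6200592-6200841, plus strand: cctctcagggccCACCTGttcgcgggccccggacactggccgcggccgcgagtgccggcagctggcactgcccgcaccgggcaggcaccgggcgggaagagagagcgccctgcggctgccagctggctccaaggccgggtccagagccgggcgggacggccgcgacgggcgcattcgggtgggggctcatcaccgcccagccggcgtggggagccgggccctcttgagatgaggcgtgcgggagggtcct
TSPAN13, chr7:16753505-16753754, plus strand: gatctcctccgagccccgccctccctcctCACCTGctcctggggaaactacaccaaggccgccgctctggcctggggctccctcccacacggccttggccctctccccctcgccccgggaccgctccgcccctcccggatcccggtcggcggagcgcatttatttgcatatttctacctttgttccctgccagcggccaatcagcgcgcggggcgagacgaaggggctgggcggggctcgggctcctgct
CD82, chr11:44565413-44565662, plus strand: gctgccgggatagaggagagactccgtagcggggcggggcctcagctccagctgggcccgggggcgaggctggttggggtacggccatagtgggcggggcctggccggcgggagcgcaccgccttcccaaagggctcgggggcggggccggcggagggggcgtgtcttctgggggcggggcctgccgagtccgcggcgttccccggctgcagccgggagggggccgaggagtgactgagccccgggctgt
TSPAN1, chr1:46174837-46175086, plus strand: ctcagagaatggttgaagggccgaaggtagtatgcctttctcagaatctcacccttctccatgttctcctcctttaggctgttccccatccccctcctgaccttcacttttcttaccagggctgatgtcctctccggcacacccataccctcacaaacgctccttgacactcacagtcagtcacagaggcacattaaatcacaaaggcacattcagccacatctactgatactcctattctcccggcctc
CD63, chr12:55729674-55729923, minus strand: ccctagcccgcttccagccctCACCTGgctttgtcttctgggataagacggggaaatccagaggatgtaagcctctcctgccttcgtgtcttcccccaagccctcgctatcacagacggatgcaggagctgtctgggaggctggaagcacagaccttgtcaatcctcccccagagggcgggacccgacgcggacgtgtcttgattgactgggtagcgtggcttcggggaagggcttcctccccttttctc
The E-box began 238 bases before the start in CD9, 221 bases before it in TSPAN13 and 229 bases before it in CD63. CD9 has 4 windows, of which 1 held the motif, and CD63 has 8, of which 3 held it, so the printed windows of these genes are not typical of all their starts. A match in these letters is a description of sequence and not a binding site.

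Compared as a family, the tetraspanins split into a few genes that fell strongly and a larger number of small differences. A gene was called at an adjusted p below 0.01 and more than 2-fold, with limma and p-values adjusted by Benjamini-Hochberg across the 33297 probe sets. Of the 32 genes 5 were called lower in MCF10A-SNAI1 cells and 0 were called higher. Among all 18417 genes 2.54% were called lower and 3.10% higher, 5.64% in all. The 5 that fell were TSPAN1, CD9, CD82, TSPAN13 and TSPAN18. Below 0.01 at any fold were 13 members, against 23.2% of all genes. Beside the 5 called, 3 of these were lower and 5 higher by less than 2-fold, against 8.64% and 8.95% of all genes, and the remaining 19 members did not pass this p. The median log2 fold change was -0.08 over the family and -0.013 over all genes, and the median of its absolute value was 0.34 over the family and 0.15 over all genes. Arrays of the lines did not overlap for 22 of the 32 genes, with MCF10A-SNAI1 below in 13 and above in 9, against 24.6% and 23.7% of all genes. In an exact two-sided permutation test of 3 arrays against 3, such a gene has p = 0.1, the smallest p that this design allows.

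**Figure D1:**
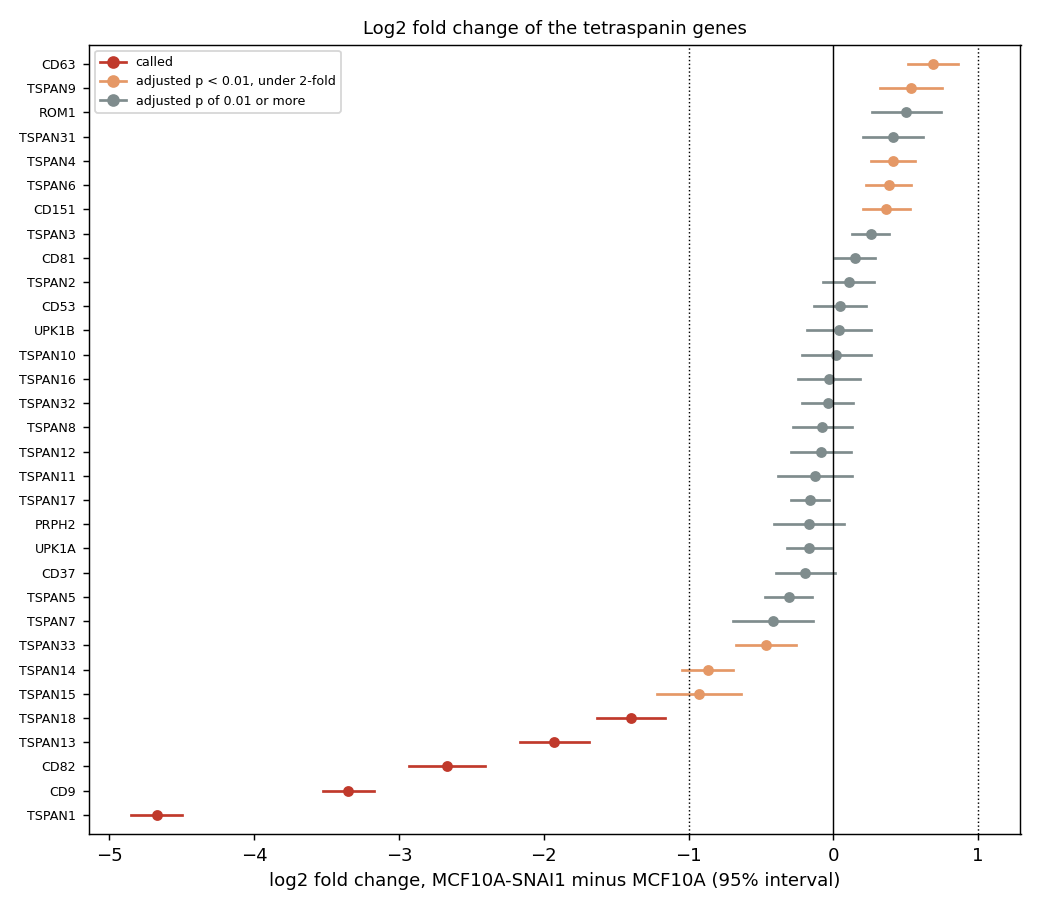
Log2 fold change of the 32 tetraspanin genes (x axis, MCF10A-SNAI1 minus MCF10A) with 95% intervals from limma, from the highest at the top to the lowest at the bottom. The 5 called genes, in red, lie between -4.67 and -1.40, and no gene lies to the right of 0.69. Dotted lines mark a 2-fold difference.

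The strongest change was that of TSPAN1, a tetraspanin of many glandular epithelia. It was measured at 5.18, 5.19 and 5.01 in MCF10A-SNAI1 cells, against 9.85, 9.82 and 9.73 in MCF10A cells. All arrays of the SNAI1 line were far below all arrays of the untransfected MCF10A cells, and the gap was many times the spread within either. The log2 fold change was -4.67 (SE 0.07, limma adjusted p = 1.69e-07), which is 25.5-fold lower. The table holds no detection calls, so whether its level in MCF10A-SNAI1 cells was background was not decided, and if it was, the fold is a lower bound. In RNA of whole cultures, less RNA per cell and fewer cells with that RNA cannot be told apart, here and for all genes that follow.

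CD9 followed. This tetraspanin binds integrins, immunoglobulin proteins of the EWI family and the membrane-bound precursor of HB-EGF, and it is a common marker of extracellular vesicles. CD9 lay at 6.59, 6.68 and 6.81 in MCF10A-SNAI1 cells, against 10.07, 10.01 and 10.05 in MCF10A cells. The groups did not overlap. Its level was 10.2-fold lower (log2 fold change -3.35 with SE 0.07, limma adjusted p = 4.98e-07).

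CD82, also called KAI1, is known as a suppressor of metastasis that dampens signals of integrins and growth factor receptors. It was at 7.20, 7.28 and 7.50 in MCF10A-SNAI1 cells, against 9.95, 9.87 and 10.17 in MCF10A cells. The spread within either line was small beside the gap between them. CD82 fell 6.36-fold (log2 fold change -2.67 with SE 0.11, limma adjusted p = 6.76e-06).

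TSPAN13 and TSPAN18 are known from work on calcium channels, TSPAN13 as a partner of voltage-gated channels and TSPAN18 as a partner of the store-operated channel Orai. TSPAN13 was at 5.69, 5.96 and 6.03 in MCF10A-SNAI1 cells, against 7.86, 7.73 and 7.87 in MCF10A cells. TSPAN18 was at 5.70, 5.77 and 5.99 in MCF10A-SNAI1 cells, against 7.12, 7.18 and 7.34 in MCF10A cells. Both genes fell without overlap of the arrays. The log2 fold changes were -1.93 for TSPAN13 (SE 0.10, limma adjusted p = 2.03e-05) and -1.40 for TSPAN18 (SE 0.10, adjusted p = 8.58e-05). When the test was made against a 2-fold difference rather than against no difference (limma's treat), TSPAN18 did not pass (limma adjusted p = 0.133), and the other 4 genes did.

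**Figure D2:**
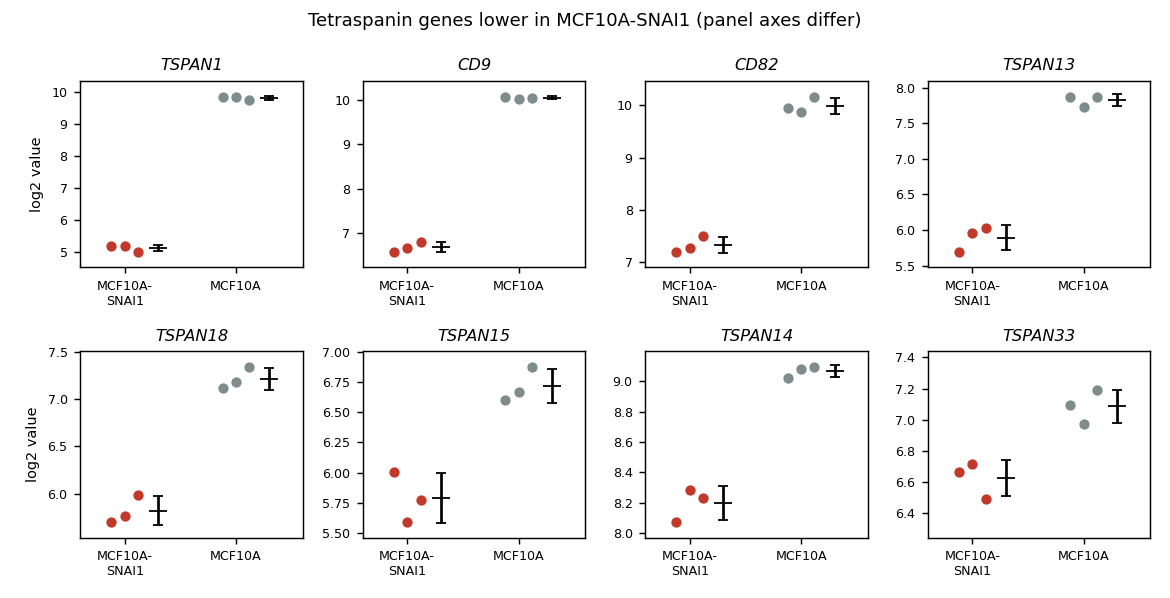
Values on the log2 scale (y axis, a separate range in each panel) of the 8 tetraspanin genes lower in MCF10A-SNAI1 at an adjusted p below 0.01, with a point per array of MCF10A-SNAI1 (red) and MCF10A (grey) and black bars for mean and SD (3 arrays). In each panel the MCF10A-SNAI1 arrays lie below the MCF10A arrays, with means of 5.13 in MCF10A-SNAI1 and 9.80 in MCF10A for TSPAN1, and of 6.62 in MCF10A-SNAI1 and 7.09 in MCF10A for TSPAN33.

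The genes just inside and just outside the 2-fold threshold were TSPAN18 and TSPAN15, at -1.40 and -0.93. TSPAN15 belongs to the TspanC8 group, the tetraspanins that escort the protease ADAM10 to the cell surface and steer the choice of its substrates. None of the 6 TspanC8 genes was called, and 3 of them were lower by less than 2-fold with an adjusted p below 0.01, against 5.64% called and 8.64% lower by less than 2-fold among all genes. TSPAN15, which is known to favour cleavage of N-cadherin, lay at 6.01, 5.59 and 5.77 in MCF10A-SNAI1 cells, against 6.60, 6.67 and 6.88 in MCF10A cells (log2 fold change -0.93 with SE 0.12, limma adjusted p = 0.00153). The 95% interval of this difference, -1.22 to -0.64, contained a 2-fold change, and without MCF10A-SNAI1 replicate 1 the gene was called, at -1.04 (adjusted p = 0.00148). Its adjusted p was 0.0218, above the threshold, by the methods' t-test. TSPAN14 was at 8.07, 8.29 and 8.23 in MCF10A-SNAI1 cells, against 9.02, 9.08 and 9.09 in MCF10A cells. Its log2 fold change was -0.87 (SE 0.07, limma adjusted p = 2.00e-04), again with separate groups. The 95% interval for TSPAN14, -1.04 to -0.69, also contained a 2-fold change.

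The other TspanC8 genes moved less. TSPAN33, which is expressed in B cells and red cell precursors, was at 6.66, 6.72 and 6.49 in MCF10A-SNAI1 cells, against 7.09, 6.97 and 7.19 in MCF10A cells (log2 fold change -0.46, limma adjusted p = 0.00798). This small difference was above the threshold in each of 6 fits with 1 array left out, at adjusted p = 0.0127 to 0.0322. TSPAN5 and TSPAN17, close relatives of each other, had log2 fold changes of -0.31 (adjusted p = 0.0170) and -0.16 (adjusted p = 0.0856). TSPAN10 was at 6.35 ± 0.07 in MCF10A-SNAI1 and at 6.33 ± 0.18 in MCF10A cells (SD, n = 3 arrays each), and its arrays overlapped (limma adjusted p = 0.928). Over the 6 genes the median log2 fold change was -0.39, against -0.013 over all genes. ADAM10 itself was at 10.97, 11.05 and 10.97 in MCF10A-SNAI1 cells, against 10.24, 10.46 and 10.47 in MCF10A cells. It was thus higher by 0.61 on the log2 scale (SE 0.08, limma adjusted p = 0.00155), under 2-fold, while 3 of its tetraspanin escorts were lower.

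Of the 5 tetraspanins best known as integrin partners and vesicle markers, CD9 and CD82 fell as described, CD63 and CD151 were higher but under 2-fold, and CD81 did not pass. CD63 is the tetraspanin of late endosomes and lysosomes. It was at 11.06, 11.22 and 11.15 in MCF10A-SNAI1 cells, against 10.40, 10.42 and 10.55 in MCF10A cells. This was the largest increase in the family, 1.61-fold (log2 fold change 0.69 with SE 0.07 and 95% interval 0.52 to 0.86, limma adjusted p = 5.07e-04), and it stayed below the adjusted p threshold in each of 6 fits with 1 array left out.

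CD151, the tetraspanin that binds laminin-binding integrins most tightly and is part of hemidesmosomes, was at 11.42, 11.47 and 11.37 in MCF10A-SNAI1 cells, against 11.02, 10.99 and 11.15 in MCF10A cells. The arrays did not overlap, and the log2 fold change was 0.37 (SE 0.07, limma adjusted p = 0.00750). In each of 6 fits with 1 array left out its adjusted p was above the threshold, at 0.0104 to 0.0322. CD81, a tetraspanin of B cell receptors and vesicles, was at 11.71, 11.79 and 11.76 in MCF10A-SNAI1 cells, against 11.64, 11.56 and 11.60 in MCF10A cells. Its log2 fold change was 0.15 (95% interval 0.01 to 0.29, limma adjusted p = 0.126), an interval that lies well within 2-fold. The vesicle markers CD9 and CD63 thus differed in direction in these cells.

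The other genes that were higher at an adjusted p below 0.01 were TSPAN9, TSPAN4 and TSPAN6, and none reached 2-fold. TSPAN9, a tetraspanin of platelets, was at 7.34, 7.29 and 7.26 in MCF10A-SNAI1 cells, against 6.72, 6.62 and 6.94 in MCF10A cells (log2 fold change 0.54 with SE 0.09, limma adjusted p = 0.00500). TSPAN4, which marks the retraction fibres and migrasomes of migrating cells, was at 10.02, 10.01 and 10.01 in MCF10A-SNAI1 cells, against 9.69, 9.57 and 9.54 in MCF10A cells (log2 fold change 0.41 with SE 0.06, adjusted p = 0.00332). TSPAN6, an endosomal tetraspanin, was at 8.57, 8.62 and 8.68 in MCF10A-SNAI1 cells, against 8.25, 8.30 and 8.17 in MCF10A cells (log2 fold change 0.38 with SE 0.07, adjusted p = 0.00488). Groups were separate for all 3 genes. With 1 array left out, however, each of them kept an adjusted p below 0.01 in only 1 of 6 fits, with values up to 0.0227 for TSPAN9, 0.0167 for TSPAN4 and 0.0236 for TSPAN6.

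**Figure D3:**
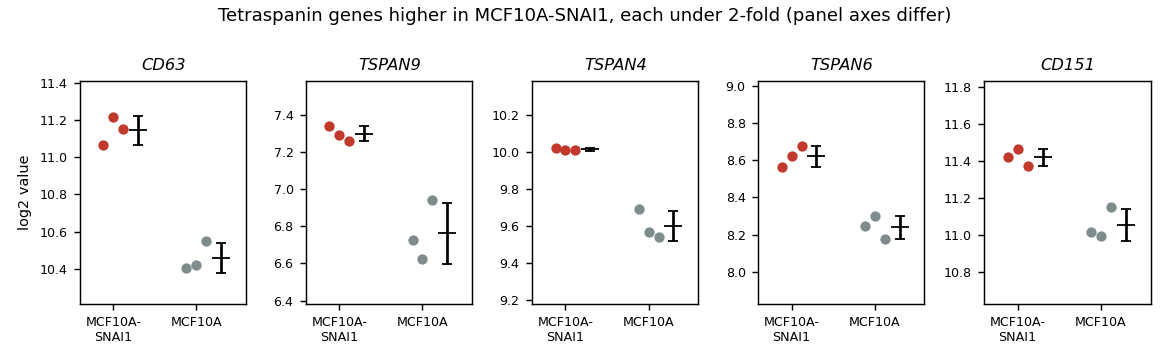
Values on the log2 scale (y axis, a separate range in each panel) of the 5 tetraspanin genes higher in MCF10A-SNAI1 at an adjusted p below 0.01, with a point per array of MCF10A-SNAI1 (red) and MCF10A (grey) and black bars for mean and SD (3 arrays). CD63 has a mean of 11.14 in MCF10A-SNAI1 and 10.46 in MCF10A, and CD151 one of 11.42 in MCF10A-SNAI1 and 11.05 in MCF10A.

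Just above the threshold lay ROM1, TSPAN31 and TSPAN3, with non-overlapping arrays and MCF10A-SNAI1 above. ROM1, a protein of the photoreceptor outer segment, was at a log2 fold change of 0.50 (limma adjusted p = 0.0102). TSPAN31, first found as a gene amplified in sarcomas, had 0.41 (adjusted p = 0.0128), and TSPAN3 had 0.26 (adjusted p = 0.0133). TSPAN7, a tetraspanin of neurons, was below in MCF10A-SNAI1 cells without overlap, at 5.03, 5.06 and 5.43, against 5.65, 5.49 and 5.62 in MCF10A cells, and also missed the threshold (log2 fold change -0.41, adjusted p = 0.0420).

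A further 6 tetraspanins known from leukocytes, urothelium and photoreceptors did not pass the test. The leukocyte genes CD37, CD53 and TSPAN32 had log2 fold changes of -0.19, 0.05 and -0.04. Those of the urothelial plaque genes UPK1A and UPK1B were -0.17 and 0.04, and PRPH2, the photoreceptor partner of ROM1, was at -0.17 (limma adjusted p = 0.114 to 0.843 over the 6 genes). TSPAN8, a tetraspanin of gut epithelium, was at 3.02 ± 0.11 in MCF10A-SNAI1 and 3.10 ± 0.11 in MCF10A cells (SD, n = 3 arrays each), and TSPAN16 was at 3.86 ± 0.07 in MCF10A-SNAI1 and 3.89 ± 0.15 in MCF10A cells. These 2 genes were the members within the lowest 20% of all values in both lines, below 3.94, where a difference in RNA could go unseen. TSPAN2, TSPAN11 and TSPAN12 had log2 fold changes of 0.10, -0.13 and -0.08 with overlapping arrays. The second probe set of TSPAN11, at 0.06, did not pass either (adjusted p = 0.756). Means of CD53, PRPH2, UPK1A, UPK1B, TSPAN2 and TSPAN12 lay between 3.96 and 5.12. The endothelial genes above reached 5.20 in MCF10A-SNAI1 and 5.17 in MCF10A cells, so a difference in these members could also go unseen.

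**Figure D4:**
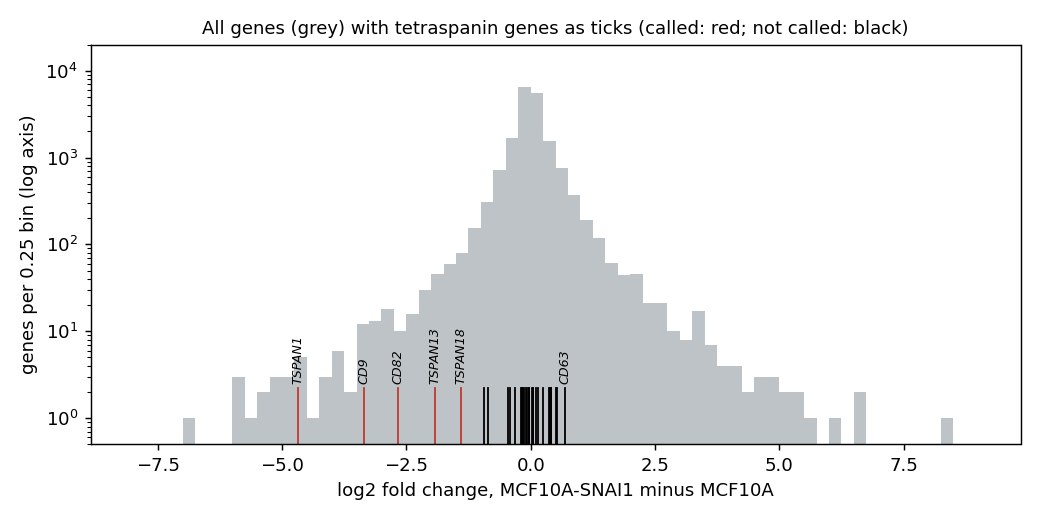
Number of genes (y axis, log scale) by log2 fold change of MCF10A-SNAI1 minus MCF10A (x axis, bins of 0.25) for all 18417 genes in grey, with the 32 tetraspanin genes as ticks, red where called and black where not. TSPAN1 and CD9 stand far into the left flank of the distribution, and CD63, at 0.69, is the rightmost tick.

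Some members lie side by side in the genome, in the RefSeq order of protein-coding genes. CD82 and TSPAN18 are direct neighbours on chromosome 11, and both fell, at log2 fold changes of -2.67 and -1.40. TSPAN32 and CD81, direct neighbours on the same chromosome, had log2 fold changes of -0.04 and 0.15. CD151 and TSPAN4, with 1 coding gene between them, had 0.37 and 0.41. On chromosome 12, by contrast, TSPAN9 and CD9 have 19 coding genes between them and differed in direction, at 0.54 and -3.35.

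Genes whose proteins bind tetraspanins or work beside them were followed as background. Of 40 such genes 36 had a probe set of their own, and F11R, PDCD6IP, SDC4 and UPK3B were not analysed here. Of the 36, 7 were called lower and 2 higher in MCF10A-SNAI1 cells, 5 were lower and 2 higher by less than 2-fold with an adjusted p below 0.01, and 20 did not pass. Among all genes 2.54% were called lower and 3.10% higher, and 8.64% were lower and 8.95% higher by less than 2-fold. The partners' median log2 fold change was -0.18, against -0.013 over all genes. Of the 7 partner genes called lower, 4 came from a list of epithelial surface proteins. One of these, EPCAM, is also among the epithelial markers above.

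Among the laminin-binding integrin chains, the partners of CD151, the chains ITGA6 and ITGB4 fell and the others did not pass. ITGA6 was at 6.19, 6.13 and 6.40 in MCF10A-SNAI1 cells, against 12.12, 12.16 and 12.11 in MCF10A cells (log2 fold change -5.89 with SE 0.08, limma adjusted p = 1.27e-07). ITGB4, its partner chain in hemidesmosomes, was lower at -2.09 (adjusted p = 3.18e-06). ITGA3, which also pairs with ITGB1 and binds CD151, was at 11.65 ± 0.02 in MCF10A-SNAI1 and 11.91 ± 0.04 in MCF10A cells (SD, n = 3 arrays each; log2 fold change -0.26, limma adjusted p = 0.0146), and for ITGB1 it was 0.17 (adjusted p = 0.0969). CD151 was thus measured slightly higher beside a much lower ITGA6.

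The EWI proteins are immunoglobulin-like partners of CD9 and CD81. IGSF8 was lower but under 2-fold, at -0.36 (limma adjusted p = 0.00728), and PTGFRN did not pass, at -0.27 (adjusted p = 0.0240). Their relative IGSF3 was called lower at -1.02 (adjusted p = 3.45e-04), but stayed under 2-fold with MCF10A replicate 2, MCF10A replicate 3 or MCF10A-SNAI1 replicate 3 left out, at -0.947, -0.996 and -0.981.

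Of 10 genes of epithelial surface proteins known to associate with tetraspanins, 4 were called lower, against 2.54% of all genes. This list was chosen as epithelial, and of the 6 measured epithelial markers 5 were called lower too. Its count is therefore not particular to tetraspanin partners. A further 2 were lower by less than 2-fold with an adjusted p below 0.01, against 8.64% of all genes, and 4 did not pass. HBEGF, whose membrane-bound precursor binds CD9, was at 6.58, 6.44 and 6.44 in MCF10A-SNAI1 cells, against 8.64, 8.72 and 8.98 in MCF10A cells (log2 fold change -2.29 with SE 0.10, limma adjusted p = 8.94e-06). EPCAM and the tight junction gene CLDN1 had log2 fold changes of -3.70 and -1.78, and the heparan sulfate proteoglycan gene SDC1 had -1.80. The hyaluronan receptor gene CD44 and the receptor kinase gene MET were lower but under 2-fold, at -0.47 and -0.75. EGFR, a receptor that CD82 is known to restrain, did not pass, at -0.13 (adjusted p = 0.219), and neither did CLDN7, DPP4 and CD46, at -0.37, -0.15 and 0.19 (adjusted p = 0.0172, 0.265 and 0.0848).

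Genes of vesicle release and of membrane patches moved both ways. The flotillin gene FLOT1 rose to 9.89 ± 0.15 in MCF10A-SNAI1 cells, against 8.16 ± 0.15 in MCF10A cells (SD, n = 3 arrays each), without overlap (log2 fold change 1.73 with SE 0.11, limma adjusted p = 4.53e-05), whereas its partner FLOT2 was lower under 2-fold, at -0.68. FLOT1 had 3 probe sets with its symbol alone, and these values are of the brightest. With the mean of its probe sets FLOT1 was also called higher. RAB27B, a small GTPase of vesicle secretion, was at -0.97 and was called without MCF10A replicate 1 or MCF10A-SNAI1 replicate 2, at -1.01 and -1.02. TSG101, a component of the endosomal sorting machinery, was at 0.02 (adjusted p = 0.918). PRKCA, a kinase that tetraspanins link to integrins, rose at 1.67 (adjusted p = 2.82e-06), and ZDHHC2, an enzyme that palmitoylates CD9 and CD151, did not pass, at 0.47 (adjusted p = 0.0131). Of the ADAM proteases, ADAM9 was higher by 0.99, just under 2-fold, and was called without MCF10A replicate 2 or MCF10A-SNAI1 replicate 1, at 1.03 in both fits. ADAM17 lay in the other direction, at -0.41 without overlap of the arrays, and did not pass (limma adjusted p = 0.0185).

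**Figure D5:**
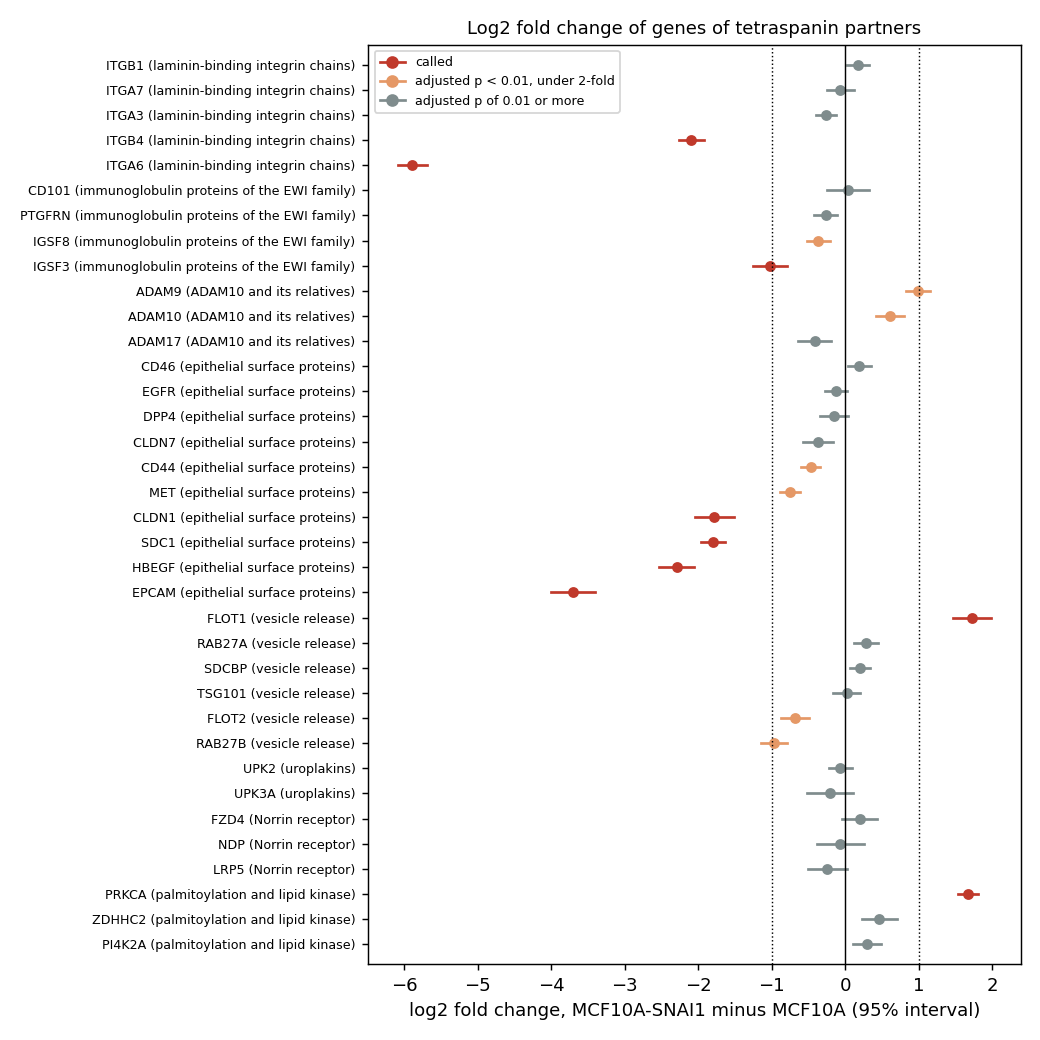
Log2 fold change of the 36 measured partner genes (x axis, MCF10A-SNAI1 minus MCF10A) with 95% intervals from limma, grouped by kind of partner (y axis). ITGA6 lies farthest to the left at -5.89 and FLOT1 farthest to the right at 1.73, and dotted lines mark a 2-fold difference.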

How the data were processed

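The table the authors deposited holds log2 values of Affymetrix HuGene arrays, with 33297 probe sets. The article describes normalization by GC RMA in GeneSpring, whereas GCOS, Affymetrix Expression Console 1.1 and MAS5 stand in the submitters' processing notes. The sources used here do not say which of them made the table, so background correction was not varied, and the values were used as deposited. Of the probe sets, 19460 had 1 gene symbol, 1754 several and 12083 were unnamed here. MCF10A-SNAI1 was compared with MCF10A in R 4.3.3 with limma 3.58.1 (linear model, empirical Bayes, p-values adjusted by Benjamini-Hochberg across probe sets). A call required an adjusted p below 0.01 with a log2 fold change beyond 1 in either direction, the thresholds of the article. The precision was limited by the 3 arrays per line. The p-values weigh the difference between the lines against the spread between these arrays, and not against the spread between separately made SNAI1 lines.

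The members, gene lists and tests were chosen with earlier results of these data known. Named were the members with an adjusted p below 0.01, the main vesicle and TspanC8 tetraspanins, called partner genes and ADAM10, ITGA3, ITGB1, IGSF8 and PTGFRN. Other genes named were chosen after their values were seen. All 32 members had an entry in RefSeq GRCh38.p14. The fit was tested on simulated arrays. Alternatives were quantile normalization, median centring, the replicate number as a block, leaving out 1 array at a time, removal of dim probe sets, eBayes with trend or robust, the methods' t-test, treat, an adjusted p below 0.05 and averaged probe sets.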

Additional observations from a re-analysis of the deposited data

How the results depend on the processing

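The 5 tetraspanin genes called lower were the same under every alternative except limma's treat, which lost TSPAN18, and the fit without MCF10A-SNAI1 replicate 1, which added TSPAN15. No tetraspanin gene was called higher in any of them. The number at an adjusted p below 0.01, 13, was less stable. It was 8 with the replicate number as a block (replicate block) and 8 to 10 with 1 array left out, where fewer arrays enter the fit, and 9 by the methods' t-test, but 14 after quantile normalization or median centring, 16 without dim probe sets under either filter, and 17 with a trend in eBayes, robust or not. The genes lost with the block were CD151, TSPAN33, TSPAN4, TSPAN6 and TSPAN9 (adjusted p = 0.0130 to 0.0353). Deviations of same-numbered arrays from their line means correlated at r = 0.115, 0.122 and -0.006 across probe sets, for replicates 1, 2 and 3. Pairs with different numbers ranged from r = -0.134 to 0.034. The same-numbered pairs of replicates 1 and 2 were thus the highest, while MCF10A-SNAI1 replicate 3 correlated best with MCF10A replicate 2 (r = 0.034). Whether same-numbered arrays were handled together was not tested. The block and leaving out any array gave 5 or 6 genes called lower. TSPAN10, at a log2 fold change of 0.02, ranged from -0.084 to 0.078 with 1 array left out and was negative without MCF10A replicate 2 and, at -0.02, without MCF10A-SNAI1 replicate 1. With treat, 226 genes of the array were higher and 199 lower, against 571 and 467, since that test asks for more than 2-fold. The methods' t-test gave 512 and 423, both within 1.5 times. Partner genes called lower ranged from 6 to 8 and those called higher from 2 to 3 with 1 array left out. A log transformation was planned for a linear table and not needed.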
